A study of Mus musculus with 2 samples.

Results

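Molecular chaperones and protein folding enzymes were examined in RNA recovered with HuR from C2C12 cells, a mouse line of myoblasts that fuse into muscle fibres when serum is withdrawn. The genes were those with a symbol of the CCT chaperonin, heat shock protein, J protein, protein disulfide isomerase, cyclophilin, FK506-binding protein, calnexin or calreticulin type. The array held 108 such clones of 61 genes, among 10202 named features of 7790 genes and 16896 features in all. The HuR sample was an immunoprecipitate of untreated, proliferating cells with the monoclonal antibody 3A2, and the IgG sample was the control immunoprecipitate from extract of the same line under the same conditions. The cells were collected at 80% confluency in medium with 20% serum. Each antibody had 1 sample and 3 array runs. One run of each is marked 3 and one 4, and the remaining one, called unmarked here, has no mark. The labels do not say whether these runs were separate immunoprecipitations.

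HuR (Elavl1) is an RNA-binding protein of U-rich and AU-rich stretches in mRNAs, and it is known for stabilising mRNAs or changing their translation. Chaperones bind unfolded chains: the CCT (TRiC) ring folds actin and tubulin, HSP70 works with J proteins that deliver its clients, and HSP90 matures kinases and receptors with the help of cyclophilins and FK506-binding proteins. In the endoplasmic reticulum, disulfide isomerases form disulfide bonds, and the lectin chaperones calnexin and calreticulin hold glycoproteins. Muscle cells use these systems to fold actin and myosin.

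The values are z scores, in which each run has been scaled to a mean of 0 and an SD of 1, so no fold change can be given. The array was scaled in 2 sections, each run was centred on its median there, runs with the same mark were paired, and a difference is HuR minus IgG averaged over the 3 pairs. The SD beside it is the spread between these pairs. With 1 sample per antibody no significance test was possible, and a difference of 1 z score unit was used as a threshold. Values below refer to the 72 clones of 42 genes in the brighter 50% of features, unless stated otherwise. The other 36 clones, among them all clones of 19 genes, were dimmer. Of the 9 myoblast markers listed, Vim and Msc had clones on the array, and the defining regulators Myod1, Myf5 and Myog had no named clone, so the cell type could not be checked by them. Vim scored 0.44 with HuR and 0.54 with IgG. Of the 6 epithelial and liver markers, 5 had a clone in the brighter 50%. The marker scores are medians over all clones of a gene, dimmer ones included. Alb (0.50 with HuR, 0.93 with IgG) and Apoa1 (0.53 with HuR, 0.81 with IgG) were lower with HuR, and Krt18 (0.98 with HuR, 0.78 with IgG) was higher. Ttr (0.46 with both) and Krt8 (-0.58 with HuR, -0.56 with IgG) were level. Only 1 of the 4 Krt8 clones and 2 of the 3 Krt18 clones were in the brighter 50%. The blood marker Hbb-b1, with 2 of 6 clones there, scored -0.22 with HuR and -0.03 with IgG. The neural marker Tubb3 scored 0.39 with HuR and 0.11 with IgG.

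As a group the chaperone mRNAs had a median difference between HuR and IgG slightly below 0, by less than the SD over the pairs. The 42 genes had a median difference of -0.10 ± 0.20 (SD over 3 run pairs), against -0.04 ± 0.09 for all 4238 named genes. Of the 42, 25 (59.5%) were below 0, against 57.7% of all named genes. Of the 72 clones, 62 (86.1%) lay within 0.5 units of 0, against 92.5% of all features, and in 55 (76.4%) the spread between pairs was larger than the difference itself, against 81.6% of all features. Over all signal levels, a clone each of Dnaja1 and Pdia4 was at least 1 unit higher with HuR, 2 of 108 (1.85%), against 1.13% of all features. No chaperone clone, 0 of 108, was at least 1 unit lower, against 0.166% of all features. In the brighter 50% alone the array's shares were 1.56% higher and 0.0947% lower. Both of the higher clones entered the brighter 50% only through their HuR scores, since their mean with IgG lay below its limit, so their count among the 72 carries no weight. In all, 3 of the 72 clones entered only through their HuR scores and 3 only through their IgG scores, so counts by direction there depend in part on the filter. In the brighter 50%, the HuR score was higher in every run pair for 9 clones (12.5%), against 10.2% of all features there. Those 9 include the higher Dnaja1 and Pdia4 clones. The HuR score was lower in every run pair for 7 clones (9.72%), against 10.4%.

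**Figure D1:**
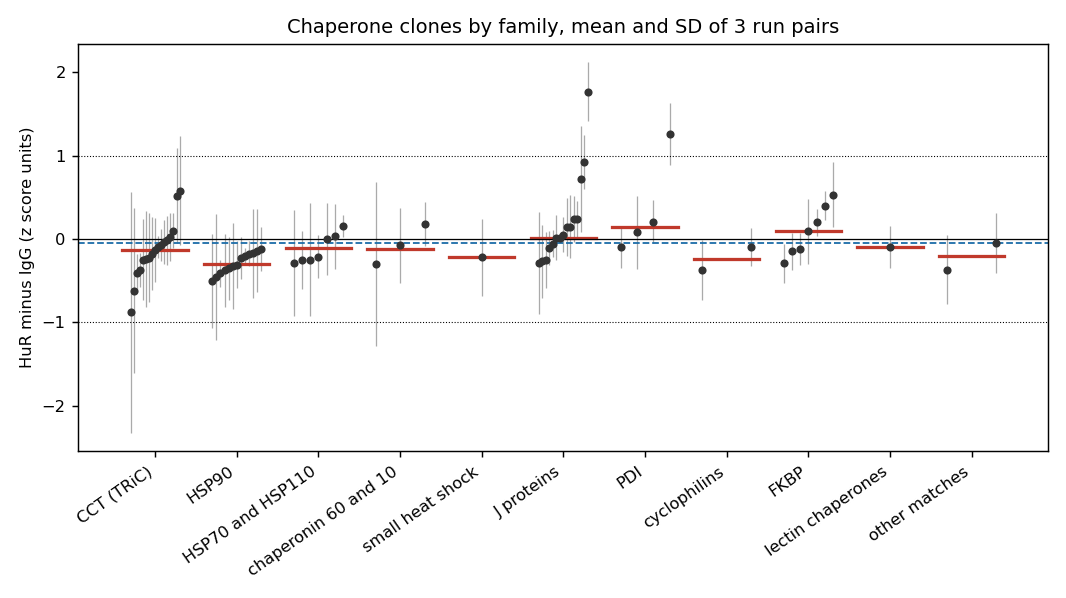
Difference of each chaperone clone in the brighter 50% of features (HuR minus IgG, z score units), by family. Points are means over 3 run pairs with SD bars, red lines are family medians over genes, the dashed blue line is the median of all named genes (-0.04), and dotted lines mark 1 and -1. All 13 HSP90 clones, of 2 genes, lie below 0, against 55.4% of all features in the brighter 50%. A clone each of Dnaja1 (1.77) and Pdia4 (1.26) lies above 1.

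The cytosolic HSP90 mRNAs had mean differences below 0 on each of their clones in the brighter 50%. Hsp90aa1 (Entrez Gene 15519), the stress-inducible form, had 7 clones between -0.51 and -0.14, and Hsp90ab1 (Entrez Gene 15516), the constitutive form, had 6 clones between -0.46 and -0.12. The 13 clones came from 8 source plates and both sections of the array, and 13 of 13 (100%) were below 0, against 55.4% of all features. They are clones of 2 genes, some in adjoining wells, so they do not count as 13 separate features. The Hsp90aa1 clone on plate 131 entered the brighter 50% only through its IgG scores (mean -0.10 with HuR, 0.13 with IgG). The SD over run pairs was 0.10 to 0.76 among the 13 clones.

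Hsp90aa1, as the median of its clones, scored 0.14, 0.79 and 0.13 with HuR in the unmarked run, run 3 and run 4, against 0.49, 0.66 and 0.49 with IgG. Its difference was -0.35 ± 0.34. Hsp90ab1 scored 0.85, 1.00 and 0.91 with HuR, against 1.31, 1.00 and 1.22 with IgG, a difference of -0.26 ± 0.26. HuR was thus the lower antibody in the unmarked run and in run 4, while run 3 gave Hsp90aa1 slightly higher with HuR and Hsp90ab1 at nearly the same score. By clone, 13 of 13 were below 0 in the unmarked pair, 12 of 13 (92.3%) in pair 4 and 5 of 13 (38.5%) in pair 3. Of all features, 56.6%, 52.05% and 46.5% were below 0 in these pairs, in the same order. The runs of both antibodies overlapped for 11 of the 13 clones. A pair of Hsp90ab1 clones on plate 147, at -0.21 ± 0.10 and -0.31 ± 0.29, had every HuR run below every IgG run. How many of all features had separate runs was not counted, so these counts cannot be set against the array's share.

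Position on the source plate moved with part of this. The adjoining wells of the 4 Hsp90aa1 clones on plate 23 had median differences of -0.28 to -0.41. The 9 HSP90 clones of other plates had a median of -0.23, and 10 of the 13 lay below the median of their own adjoining wells. After the local median was subtracted, the HSP90 family was at -0.14, against -0.30 before. Hsp90b1, the form of the endoplasmic reticulum, had only dimmer clones, at -0.07 ± 0.42 and 0.31 ± 0.54.

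**Figure D2:**
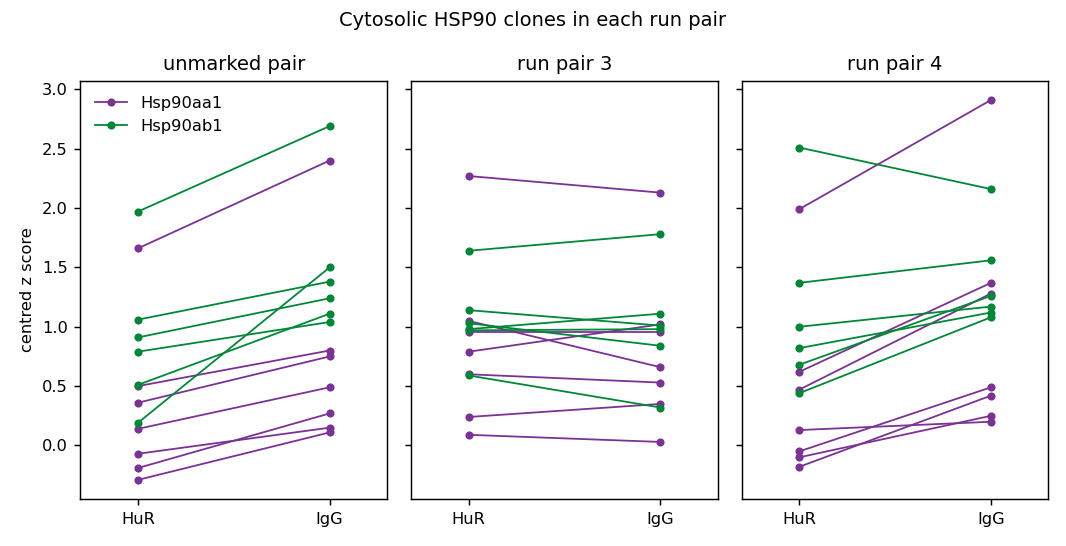
Centred z scores of the 7 Hsp90aa1 and 6 Hsp90ab1 clones with HuR (left) and IgG (right), in each run pair. Each line is 1 clone. Lines run upward from HuR to IgG in the unmarked pair for 13 of 13 clones and in run pair 4 for 12 of 13, and both ways in run pair 3.

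The HSP70 genes, whose products bind short hydrophobic stretches of unfolded chains, lay within 0.5 units of 0. Hspa8 (Entrez Gene 15481), the constitutive cytosolic HSP70, had 4 clones on 4 plates, at -0.29, -0.25, -0.25 and 0.03. As a gene it scored 1.14, 1.29 and 1.31 with HuR, against 1.86, 0.88 and 1.78 with IgG, in the unmarked run, run 3 and run 4. Its difference was -0.25 ± 0.45. HuR was lower in the unmarked run and in run 4 and higher in run 3, so the antibodies overlapped. Hspa5, the HSP70 of the endoplasmic reticulum known as BiP, was at -0.21 ± 0.26 on its brighter clone and at -0.26 and -0.51 on the dimmer ones. Hspa14, which acts at the ribosome, was at 0.00 ± 0.43, and Hsph1, a nucleotide exchange factor of HSP70, was the highest of this family at 0.15 ± 0.13. Hsph1 scored 0.63, -0.87 and 0.74 with HuR, against 0.63, -1.09 and 0.50 with IgG, so the run marked 3 was low with both antibodies. The family median was -0.11 ± 0.27 over 4 genes, and its sign did not hold: it was 0.01 with the local median subtracted, 0.01 without run pair 4 and 0.02 with the brightest clone of each gene.

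The CCT subunits form a hetero-oligomeric ring, and 8 subunit genes were measured on 17 clones from 11 plates. Their median was -0.13 ± 0.35, and 6 of the 8 genes (75.0%) were below 0, against 57.7% of all named genes. Cct2 (-0.10 ± 0.35), Cct3 (-0.13 ± 0.25), Cct7 (-0.15 ± 0.36), Cct8 (-0.13 ± 0.38) and Tcp1 (-0.25 ± 0.18), which encodes the alpha subunit, lay between -0.25 and -0.10, while Cct4 (0.52 ± 0.57) and Cct6a (0.58 ± 0.66) lay above. Among these 7 genes, the SD exceeded the difference in all but Tcp1. Cct2, the beta subunit, scored 0.48, 0.56 and 0.52 with HuR, against 0.72, 0.27 and 0.89 with IgG. Cct7, the eta subunit, scored 0.22, 0.68 and 0.50 with HuR, against 0.66, 0.46 and 0.69 with IgG. Both were lower with HuR in the unmarked run and run 4 and higher in run 3. Tcp1 scored 0.56, 0.60 and -0.10 with HuR, against 0.81, 0.68 and 0.32 with IgG, lower with HuR in each pair of runs. Without Cct5 the median of the other 7 genes was also -0.13.

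Cct5, the epsilon subunit, was the lowest chaperone gene, at -0.75 ± 1.21 on 2 clones in adjoining wells of plate 23. Its gene score was -0.71, 1.36 and 1.27 with HuR, against 1.29, 0.94 and 1.93 with IgG, in the unmarked run, run 3 and run 4. The low value thus came mainly from the unmarked HuR run, where the clones were at -1.86 and 0.44. The lower of these clones entered the brighter 50% only through its IgG scores (mean -0.24 with HuR, 0.64 with IgG). In the unmarked pair, the wells around these clones had median differences of -1.06 and -1.04, so neighbouring clones were low too. Without the unmarked pair Cct5 was at -0.12.

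Cct6a, the zeta subunit, was the highest CCT gene on its 1 clone. It scored 1.38, 1.91 and 1.48 with HuR, against 1.5, 0.73 and 0.80 with IgG. HuR was higher in runs 3 and 4 only, and the antibodies overlapped. Cct4, the delta subunit, scored 0.91, 0.76 and 0.56 with HuR, against -0.26, 0.48 and 0.45 with IgG, so that HuR was above IgG in every run, by 1.17 in the unmarked pair and by 0.11 in pair 4. A dimmer Cct4 clone on another plate was at -0.25 ± 0.28.

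The J proteins, which stimulate the ATPase of HSP70, were centred on 0, with a median of 0.01 ± 0.06 over 11 genes. Of these, 5 (45.45%) were below 0, against 57.7% of all named genes. The J proteins held the highest chaperone clone. Dnaja1 (Entrez Gene 15502), a cytosolic J protein, had 4 clones on 4 plates. The clone on plate 18 scored 0.95, 1.58 and 1.10 with HuR, against -0.58, -0.59 and -0.51 with IgG, a difference of 1.77 ± 0.35. Every HuR run lay above every IgG run by more than 1 unit. The other Dnaja1 clones were at 0.15 ± 0.38, 0.05 ± 0.21 and 0.24 ± 0.28 on plates 26, 127 and 157, with overlapping runs. The gene value, as the median of 4 clones, was 0.19 ± 0.16. The wells adjoining the plate 18 clone had a median difference of 0.64, and those adjoining the other clones -0.04 to 0.25.

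Dnajc7, a J protein that binds both HSP70 and HSP90, was the highest J protein gene, at 0.92 ± 0.32 on 1 clone of the same plate 18. It scored 1.02, 0.96 and 0.96 with HuR, against 0.39, -0.31 and 0.09 with IgG. The HuR runs were close together and all above the IgG runs. The adjoining wells of this clone had a median difference of 0.10, and with the local median subtracted Dnajc7 was at 0.77. Dnajb4, a cytosolic J protein, followed at 0.72 ± 0.64, with 1.45 in run pair 4 against 0.40 in the pair without a mark and 0.30 in pair 3. Its adjoining wells were at 0.42.

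The remaining J proteins lay between -0.29 and 0.24. Dnaja3, a mitochondrial J protein, was lowest at -0.29 ± 0.61. It scored 2.41, 3.49 and 2.07 with HuR, against 2.81, 3.12 and 2.91 with IgG, and was bright with both antibodies. Dnajb6, a suppressor of protein aggregation, was at -0.27 ± 0.44. Dnajb11, a cofactor of BiP, was at -0.25 ± 0.34, whereas Dnajc10, a disulfide reductase of the endoplasmic reticulum, was at -0.04 ± 0.10 with clones at -0.11 and 0.02 on different plates. Dnajc10 scored -0.06, -0.04 and 0.21 with HuR, against 0.06, -0.11 and 0.28 with IgG. Dnajc5, the cysteine string protein of vesicles, was at 0.24 ± 0.21 and above 0 in each run pair.

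Among the folding enzymes of the endoplasmic reticulum, Pdia4 (Entrez Gene 12304), a disulfide isomerase, stood highest. Its 1 clone, on plate 17, scored 1.20, 0.85 and 1.44 with HuR, against -0.32, 0.02 and 0.01 with IgG, a difference of 1.26 ± 0.38. The HuR runs were all above the IgG runs. The adjoining wells had a median difference of 0.64, and with the local median subtracted Pdia4 was at 0.57. The other isomerases were nearer 0, with Pdia5 at 0.21 ± 0.26, Pdia3 at 0.08 ± 0.44 and Pdia6 at -0.10 ± 0.25. Pdia6 scored 0.51, 0.76 and 0.70 with HuR, against 0.79, 0.58 and 0.90 with IgG, with overlap. The isomerase median was 0.14 ± 0.26 over 4 genes, and 0.08 without Pdia4, the clone with raised neighbours. Calr, which encodes calreticulin, scored 0.26, 0.81 and 0.94 with HuR, against 0.63, 0.68 and 1.00 with IgG, a difference of -0.10 ± 0.25.

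Canx, which encodes calnexin, rests on clones that differ. The clone with undisputed numbers was dim, at 0.25 ± 0.13. Another clone carries the Entrez Gene number of Canx in 1 column and a different number, which the RefSeq table does not list, in a second column. It was not counted as a member. It scored 0.96, 2.16 and 0.82 with HuR, against 0.00, 0.57 and -0.34 with IgG, a difference of 1.24 ± 0.32. Its HuR runs lay above its IgG runs, and the adjoining wells were at 0.48. With it named Canx, the lectin chaperone median was 0.57, against -0.10 for Calr alone. The other clones with conflicting numbers in the brighter 50% were at -0.29 (Dnaja2), -0.13 (Dnajc30) and -0.59 (Ppih), with SDs of 0.76, 0.35 and 0.83.

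Cyclophilins and FK506-binding proteins isomerise proline bonds. Among cyclophilins, Ppib, which resides in the endoplasmic reticulum, scored 1.03, 1.58 and 1.11 with HuR, against 1.73, 1.57 and 1.55 with IgG, a difference of -0.38 ± 0.36. Its run 3 pair was nearly level. Ppid, a partner of HSP90, scored 0.59, 0.41 and 0.74 with HuR, against 0.49, 0.46 and 1.09 with IgG, a difference of -0.10 ± 0.23. Another 5 clones, named Ppia in the table, carry a number that now belongs to a pseudogene, Gm10123, and were not counted. All 5 lay side by side on plate 28, at -0.54 to -0.28, and their adjoining wells were at -0.47 to -0.32.

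The 5 FK506-binding protein genes had their median at 0.09 ± 0.18. Fkbp1a (Entrez Gene 14225), the small cytosolic target of FK506 and rapamycin that also binds the ryanodine receptor of muscle, was the highest gene of the family. It scored 0.80, 0.55 and 0.58 with HuR, against 0.25, 0.11 and 0.37 with IgG. Its difference was 0.40 ± 0.17 on 1 clone, every HuR run lay above every IgG run, and the adjoining wells were at -0.11. Fkbp4, a partner of HSP90, was at -0.29 ± 0.24, 0.09 ± 0.39 and 0.53 ± 0.39 on clones of 3 plates, so its clones spanned both directions. As a gene Fkbp4 scored 0.93, 0.44 and 0.66 with HuR, against 0.40, 0.31 and 0.69 with IgG. These scores are medians over clones taken apart for each antibody. The median of the clones' differences was 0.09 ± 0.38, with -0.05 in pair 3. Fkbp10 was at 0.20 ± 0.16 and Fkbp9 at -0.15 ± 0.23, both of the endoplasmic reticulum. Fkbp9 scored 0.08, -0.20 and -0.02 with HuR, against 0.47, -0.08 and -0.08 with IgG, and Fkbp3, a nuclear member, was at -0.12 ± 0.20.

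The mitochondrial chaperonin is a barrel with a lid. Hspd1, the large subunit HSP60, was at -0.08 and 0.18 on brighter clones of different plates, a gene value of 0.05 ± 0.35. It scored 1.24, 0.94 and 0.76 with HuR, against 0.81, 0.94 and 1.02 with IgG. Hspe1, its lid HSP10, scored 1.99, 1.63 and 1.00 with HuR, against 2.60, 0.83 and 2.1 with IgG, a difference of -0.30 ± 0.99 that changed direction between runs. Hspb1, a small heat shock protein, scored 1.03, 1.14 and 1.03 with HuR, against 1.21, 0.92 and 1.73 with IgG, a difference of -0.22 ± 0.46. The symbol pattern also took in genes that are not chaperones. Hspg2, the matrix proteoglycan perlecan, scored 0.48, 0.43 and 0.57 with HuR, against 0.93, 0.38 and 0.32 with IgG, a difference of -0.05 ± 0.36. Hspbap1, which encodes a partner of a small heat shock protein, scored 1.19, 1.75 and 1.09 with HuR, against 1.82, 1.64 and 1.68 with IgG, a difference of -0.37 ± 0.42. The wells adjoining the Hspbap1 clone were at -0.38, and with the local median subtracted it was at 0.03. Without both, the chaperone median stayed at -0.10.

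The direction of the chaperones depended on the run pair. Their gene median was -0.21 in the unmarked pair, 0.16 in pair 3 and -0.19 in pair 4, against -0.13, 0.04 and -0.05 for all named genes. Of the 42 genes, 25, 8 and 28 were below 0 in these pairs (59.5%, 19.1% and 66.7%), against 58.7%, 42.4% and 56.3% of all named genes. Without run pair 4 the median was 0.01, and without pair 3 it was -0.17. Being below 0 in the unmarked pair and pair 4 but above 0 in pair 3 was the pattern of 32 of the 72 clones (44.4%), against 24.0% of all features. On the first section of the array it held for 48.9% of chaperone clones, against 28.1% of features there, and on the second section for 36.0%, against 20.1%. Among the brightest 25% of features it held for 52.8%, against 24.2%. The pattern was that of the chaperone medians themselves, so an excess among their clones was partly built in. The sections and the brightest 25% hold the same clones and give no separate support.

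The families shared this order to different degrees. CCT genes were at -0.31 in the pair without a mark, 0.30 in pair 3 and -0.31 in pair 4. HSP90 genes were at -0.43, 0.06 and -0.42, and the HSP70 family was at -0.20, 0.29 and -0.15. J proteins, at 0.10, 0.10 and -0.01, and FK506-binding proteins, at 0.37, 0.05 and 0.06, did not show it. Over the 72 clones, differences correlated at 0.27 between the unmarked pair and pair 3, 0.60 between the unmarked pair and pair 4, and 0.42 between pairs 3 and 4, against 0.04, 0.40 and 0.11 over all features. Several clones share a gene and all share the same hybridisations, so these are descriptions of these runs. The 72 include the Dnaja1 and Pdia4 clones that entered only through their HuR scores and were higher with HuR in each pair. The correlations without these clones were not computed.

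**Figure D3:**
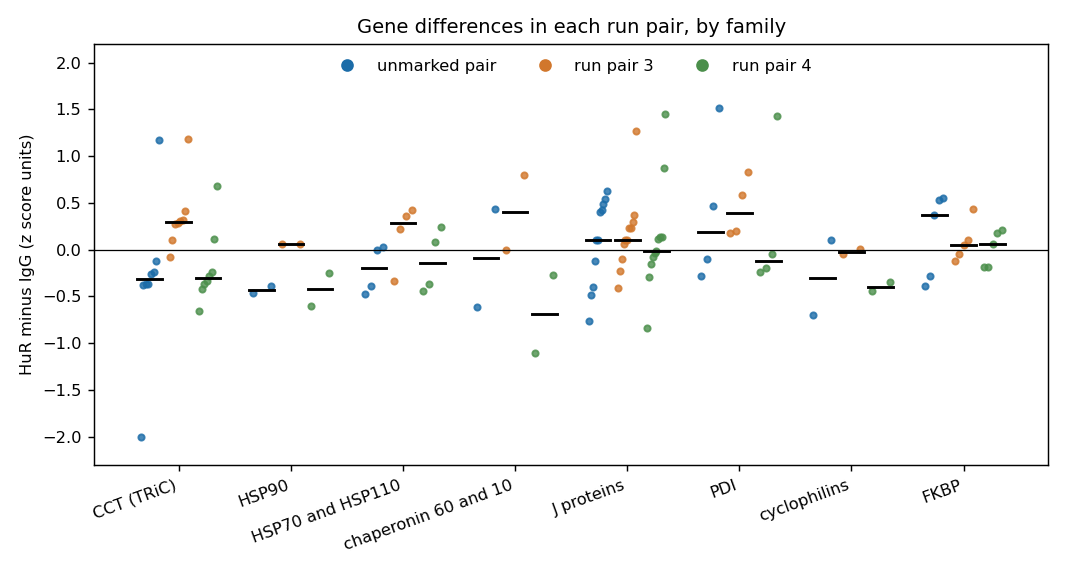
Difference of each gene (HuR minus IgG, z score units) in the unmarked run pair, run pair 3 and run pair 4, for families with at least 2 genes. Points are genes and black lines are family medians. CCT genes sit at a median of -0.31, 0.30 and -0.31, while the J protein medians are 0.10, 0.10 and -0.01 with genes spread on both sides of 0.

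The value of a clone tended to move with its place on the source plate. Not every clone followed its adjoining wells, as with Dnajc7 (0.92, adjoining wells 0.10) and Fkbp1a (0.40, adjoining wells -0.11). Across the 72 chaperone clones the difference correlated at 0.74 with the median difference of the adjoining wells, and across all 8452 features of the brighter 50% at 0.70. Among the 72, the highest and the lowest clone entered the brighter 50% through the scores of a single antibody. The correlation without such clones was not computed. Both clones at or above 1 unit, Dnaja1 on plate 18 and Pdia4 on plate 17, were also the only chaperone clones whose adjoining wells reached a median of 0.5. Without clones of that kind, 0 chaperone clones reached 1 unit in either direction. With the local median subtracted 1 did, namely the plate 18 clone of Dnaja1. The part of plate position in these values was not tested. Differences also spread more widely on the first section of the array, with an SD of 0.41 over features, against 0.22 on the second. At least 0.5 units from 0 were 8 of the 47 chaperone clones on the first section (17.0%), against 12.5% of features there, and 2 of the 25 on the second (8.0%), against 2.57%. Among the 8 were the Dnaja1 and Pdia4 clones and a Cct5 clone, each in the brighter 50% through the scores of a single antibody.

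**Figure D4:**
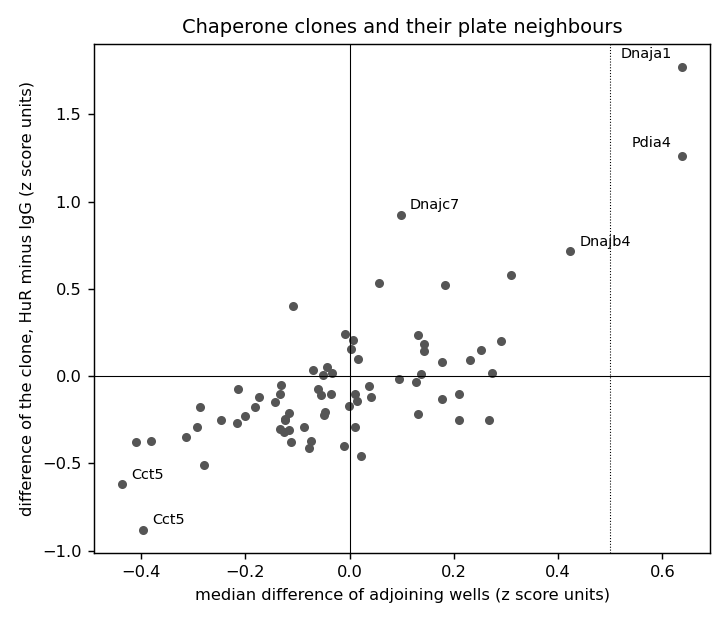
Difference of each chaperone clone (HuR minus IgG, z score units) against the median difference of its adjoining wells on the source plate. The dotted line marks 0.5. Dnaja1 (1.77) and Pdia4 (1.26) lie beyond it, Dnajc7 (0.92) has neighbours at 0.10, and both Cct5 clones have neighbours near -0.4.

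Of the 10 genes with brighter clones on several plates, 4 had every clone below 0, namely Hsp90aa1, Hsp90ab1, Cct2 and Tcp1, and Dnaja1 alone had every clone above 0. Among all 579 named genes of that kind on the array, 33.5% had every clone below 0 and 17.8% every clone above 0, so 4 of 10 (40.0%) was near the array's share. Cct2 and Tcp1 had only 2 such clones each. The Tcp1 clones were at -0.40 ± 0.23 and -0.10 ± 0.13, and the Cct2 clones at -0.18 ± 0.44 and -0.03 ± 0.27. Cct7 ran from -0.24 to 0.02 on 4 clones.

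In the authors' deposited table, 6 of the 108 chaperone clones had a two-tailed p under 0.05 and a higher HuR score (5.56%), against 4.15% of all features. These were clones of Dnaja1, Pdia4, Dnajc7, Cct6a, Fkbp4 and Fkbp1a, with z ratios in the authors' deposited table of 5.90, 4.21, 3.08, 1.92, 1.77 and 1.33. With a lower HuR score there were 5 (4.63%), against 3.33% of all features. In the authors' deposited table these were a clone of Cct3, Ppib and Hsp90aa1 each and a pair of Hsp90ab1 clones, with z ratios of -1.25 to -0.59.

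A separate list of 80 folding genes outside the symbol pattern had a median close to that of all named genes. It held co-chaperones, prefoldin subunits, oxidoreductases and tubulin cofactors. Of these, 56 were on the array and 33 were in the brighter 50%. Their median was -0.05 ± 0.19, against -0.04 for all named genes and -0.10 for the chaperones. Of the 33, 20 (60.6%) were below 0, against 57.7% of all named genes. None of the 42 clones of this list in the brighter 50% reached 1 unit in either direction. Of all features there, 1.56% were at least 1 unit higher and 0.0947% lower, so the absence was near the array's share. Bag3, a co-chaperone of HSP70 in muscle, was at 0.46 ± 0.28 and Ufd1, a partner of the segregase Vcp, at 0.49 ± 0.30, both above 0 in each run pair. Bag2, a co-chaperone that inhibits the ubiquitin ligase Stub1, was at -0.69 ± 1.43, with -2.33 in the unmarked pair against 0.27 and 0.00 in pairs 3 and 4.

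The 36 dimmer chaperone clones ran from -0.51 to 0.75, and 0 reached 1 unit. Over all features of any signal level, 1.13% were at least 1 unit higher and 0.166% lower. The dimmer Hspd1 clone at 0.75 had differences of -1.90, 1.26 and 2.88 in these pairs, in the order unmarked, 3, 4, and Dnajb1, a stress-inducible J protein, had a clone at -0.04 with -2.14, 0.28 and 1.74. Such swings exceeded any mean difference among the dimmer clones. Hspa9, the mitochondrial HSP70, was at -0.17 ± 0.30, and Hspb8, a partner of Bag3, was at -0.22 ± 0.06 and below 0 in each run pair.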

How the data were processed

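RNA from 1 HuR and 1 IgG immunoprecipitate was reverse transcribed with a radiolabelled nucleotide, per the labels' protocols, and read on 16896 spotted cDNA features in 2 sections of 8448. Per the file headers, the deposited values are z scores for 3 array runs of each antibody and their mean. The authors also deposited a z ratio, a score too, and a p-value headed as 2-tailed, with no adjustment named. Both were quoted only as the authors' values. The sources used here do not give the scanner, the background correction or the log base. Another 4 columns, with the SD and the number of runs, were not used. Recomputed means matched the deposited means within 0.0067.

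The median of each section was subtracted from every run, and runs of the same mark were paired. Clones took the symbol that their Entrez Gene number has in the RefSeq genes of GRCm38.p6 (7527 features) or else the table's symbol (2675). Features with conflicting numbers (520) stayed unnamed. Among chaperone clones, 2 kept the table's symbol. Reported apart were 5 with different numbers in the 2 number columns, of which at least 1 is a chaperone's, and 6 that matched by an old symbol alone. The brighter 50% by mean score were 8452 features. Genes were summarised by the median over their clones in that set. Scores and differences were each summarised in this way, so a gene's difference need not equal the gap between its scores. Adjoining wells were at most 8 on the 96-well source plate, without clones of the same gene.

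Scores allow no fold threshold, so 1 unit was used, with 0.6 and 1.5 as alternatives. Other alternatives changed the scaling, signal filter, run pairs, position, section and naming. The members and lists were chosen with earlier results of these data known. Values per run were given for the highest and lowest gene of each family, genes with a clone past 1 unit and genes with clones on several plates (26 genes). Genes named beyond these were chosen after their values were seen. The steps were tested on simulated data and run in Python 3.11.15 with numpy 2.4.6 and pandas 2.3.3. The number of arrays limits the precision. No sequence of the spotted clones was used.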

Additional observations from a re-analysis of the deposited data

How the results depend on the processing

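Leaving out clones by their neighbours, naming conflicting clones and the Ppia naming were tried after seeing the data. The chaperone median was -0.21 to 0.01 under 17 alternatives and moved by less than its spread in each. It was above 0 only without run pair 4. The 2 clones at least 1 unit higher with HuR became 0 in the brightest 25%, 0 on the second section, 0 without clones with raised or lowered neighbours, 1 with a local median subtracted, 4 at a threshold of 0.6 and 1 at 1.5, and 2 to 3 with 1 run pair left out, with 3 without the unmarked pair. The 0 clones at least 1 unit lower became 2 at 0.6 and 0 to 2 with 1 run pair left out, with 2 without pair 3 and 1 without pair 4. J proteins were at 0.14 in the brightest 25%, at 0.19 using section 1 and at -0.05 using section 2. With 1 run pair left out they ranged over -0.03 to 0.16, the highest without pair 4. Disulfide isomerases were at 0.73 on the first section, FK506-binding proteins at -0.10 over all signal levels and lectin chaperones at 0.57 with conflicting clones named by 1 number. Of 190 values of medians, 183 shifted less than the SD over the pairs. Of 259 values of 26 named genes, 256 did, but small values often changed sign: 9 of 12 medians and 11 of 26 genes did so under at least 1 alternative, while the HSP90, CCT and cyclophilin medians did not. The 3 gene values that shifted more were Dnaja1 at 0.96 on the first section, Fkbp4 at 0.53 on the second and Pdia4 at 0.57 with a local median subtracted. For 1-clone genes, leaving out 1 pair cannot move the mean past that spread. A signal filter or section that keeps the same clone leaves such a gene unchanged. Naming alternatives left most family medians as they were. Part of the 183 and 256 values was thus fixed in advance. The causes were not tested. How far signals lie above background is unknown. No paired analysis was possible because there is 1 sample per antibody, so that only array runs of these samples could be paired.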
